A study of Rattus norvegicus and Ovis aries with 113 samples.

Results

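The keratins are the intermediate filament proteins of epithelial cells. The genes described here are all those whose upper-cased symbol is KRT followed by digits and at most 1 letter, which leaves out the keratin-associated proteins. The sheep count tables held 37 such genes of 31304, and the rat tables held 54 of 38675. The choice rests on the symbol alone and on no measured value. KRT7, KRT10, KRT16 and KRT76 were not analysed here in sheep.

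The study sets brain beside a reproductive sample in 2 mammals, and its title asks which genes connect the nervous and the reproductive system. From 5 post-pubertal rams (687, 688, 690, 694 and 699) there were libraries of 10 dissected brain regions and of sperm, 55 in all. From 15 post-pubertal male Sprague Dawley rats (3 to 17) there were whole brain and a sperm sample, which the series text describes as seminal fluid, and from 14 female Sprague Dawley rats (1, 2 and 18 to 29) there were whole brain and ovary, 58 libraries in all. No animal carried an allele or received an agent, per the labels. Sheep and rat RNA went through different extraction and library kits, so species and preparation cannot be told apart. Each number is 1 animal, so the replicates of a group are separate animals.

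Keratins form filaments only as pairs of a type I (acidic) and a type II (basic) chain, and each kind of epithelium makes its own pairs. Single-layered epithelia, such as glands, ducts and the coverings of organs, make KRT8 with KRT18, and often KRT7 with KRT19. In stratified squamous epithelia the basal cells make KRT5 with KRT14 and KRT15. Above them, epidermis makes KRT1 or KRT2 with KRT10, and moist linings such as those of the mouth and the oesophagus make KRT4 with KRT13. KRT6 and KRT16 or KRT17 are made in activated or appendage epithelium, and other keratins build hair, nail and the inner root sheath of the hair follicle. Neurons and glia fill this role with other intermediate filaments, the neurofilaments and GFAP. Simple keratins below are KRT7, KRT8, KRT18, KRT19 and KRT20, and squamous keratins are the basal, mucosal, epidermal and activated members together.

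In the rat genome (GRCr8, RefSeq) all 54 members were protein coding and lay in 2 clusters. On chromosome 7, 27 members lay between 134341951 and 135039844, and on chromosome 10 another 27 lay between 84680331 and 85741475. Krt18, a type I gene, is the last member of the chromosome 7 cluster, beside its type II partner Krt8 (chr7:135002886-135010339). Krt10, Krt19, Krt28, Krt39 and Krt75 each overlap a non-keratin gene in that annotation, and the strand setting of the counting is not given in the sources used here. Reads of the overlapping genes may therefore be included in the counts of these 5.

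The 250 bases before the start site are shown for 4 rat members that move in pairs in the data: Krt8 and Krt18, the simple epithelium pair that was high in rat sperm and ovary, and Krt88 and Krt26, which were high in the same few sperm libraries. They are printed 5′ to 3′ on the gene's own strand, from RefSeq, build GRCr8. Capitals mark matches, on either strand, to TATAAA (the TATA box) and GGGCGG (a GC box).
Krt8: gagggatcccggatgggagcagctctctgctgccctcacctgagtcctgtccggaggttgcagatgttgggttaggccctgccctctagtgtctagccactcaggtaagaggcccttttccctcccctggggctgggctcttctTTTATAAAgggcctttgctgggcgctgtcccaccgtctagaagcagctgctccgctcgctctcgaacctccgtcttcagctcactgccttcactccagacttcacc
Krt18: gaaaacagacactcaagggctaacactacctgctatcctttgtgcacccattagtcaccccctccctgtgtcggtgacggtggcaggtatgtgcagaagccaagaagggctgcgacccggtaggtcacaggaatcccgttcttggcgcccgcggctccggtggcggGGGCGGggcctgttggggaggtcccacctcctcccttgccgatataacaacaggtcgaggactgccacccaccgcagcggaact
Krt88: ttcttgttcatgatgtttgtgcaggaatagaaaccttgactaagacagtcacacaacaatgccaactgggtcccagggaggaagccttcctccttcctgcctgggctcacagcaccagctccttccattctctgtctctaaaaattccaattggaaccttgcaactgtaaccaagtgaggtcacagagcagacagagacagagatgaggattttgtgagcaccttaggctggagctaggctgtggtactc
Krt26: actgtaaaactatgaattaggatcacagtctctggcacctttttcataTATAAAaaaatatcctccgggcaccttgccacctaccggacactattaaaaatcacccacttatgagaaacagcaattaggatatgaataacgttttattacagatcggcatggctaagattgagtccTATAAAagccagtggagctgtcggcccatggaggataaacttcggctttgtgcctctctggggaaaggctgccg
The windows are chr7:135010340-135010589 (minus strand) for Krt8, chr7:135035918-135036167 (plus strand) for Krt18, chr7:134444567-134444816 (plus strand) for Krt88 and chr10:84787002-84787251 (minus strand) for Krt26, which lies inside the annotated span of that gene. Krt8 held TATAAA 104 bases before the start and, overlapping it, the same motif on the other strand. Krt18 held GGGCGG 84 bases before the start. Krt26 held TATAAA 202 and 74 bases before the start. TGANTCA (the AP-1 motif) and AACNGGTT (the grainyhead-like motif), each searched on both strands, had no match in these 4 windows. Among the 33469 windows of that length in the table, TATAAA was in 12.9%, GGGCGG in 30.5%, TGANTCA in 6.34% and AACNGGTT in 1.76%. The match is a description of letters and says nothing of binding. A window was given for 39 of the 54 rat members.

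Library totals, in units of 1000000 counts, ran from 13.7 to 65.1 in sheep sperm, 46.7 to 72.4 in sheep brain, 13.7 to 65.1 in rat sperm, 50.5 to 60.3 in ovary and 38.2 to 119 in rat brain. Ribosomal RNA entries held 22.4% to 85.2% of the sheep sperm counts, and 86.9% and 83.1% of the counts of rat brain libraries 1 (female) and 4 (male). Levels below are counts per 1000000 counts (CPM), scaled by TMM factors (trimmed mean of M values) computed over all libraries of a species. CPM does not correct for transcript length, so it compares a gene between samples. Spermatid markers were found in every sperm library: the 12 genes summed to 221 to 7950 CPM in sheep sperm and 383 to 29019 in rat sperm. The 8 rat neuron markers summed to 4645 to 6016 CPM in brain, 22.2 to 54.7 in ovary and 1.12 to 23.2 in sperm. The 8 granulosa markers summed to 1087 to 4208 CPM in ovary, 18.7 to 31.4 in brain and 19.8 to 50.7 in sperm. Sheep sperm also held 12817 to 141482 CPM of a 10-gene neutrophil list. S100A9 and S100A8 led it, at means of 42143 and 18268 CPM, and the next, CXCR2, averaged 808. Of 9 members tested against brain 8 rose and 1 fell, where 33.1% and 41.1% of all genes did. ITGAM averaged 1.77 CPM in sperm and 10.4 in brain. In rat sperm libraries 7, 16 and 17 only 358 to 663 genes had 1 to 5 counts, against 3532 to 6339 in the other 12 libraries. In these bulk samples fewer cells of a type and less RNA per cell cannot be told apart.

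The keratin family separated the samples into 3 patterns. Sheep sperm was rich in squamous keratins, rat sperm and rat ovary carried mainly simple keratins, and brain of both species had little of either, with KRT222 as its leading member. Squamous keratins summed to 35585 CPM ± 42937 (SD, n = 5) in sheep sperm, with values of 7578 in sheep 687, 110157 in 688, 29955 in 690, 6191 in 694 and 24046 in 699. Simple keratins summed to 3437 CPM ± 3972 (SD, n = 5) there, with 542 in 687, 10150 in 688, 3642 in 690, 552 in 694 and 2300 in 699. Sheep 688 was highest and 687 and 694 were lowest in both sums, and without 688 the squamous mean was 16942 CPM and the simple mean 1759 CPM. The sums also rest on the scaling: per plain library total the squamous mean was 9260 CPM and the simple mean 895 CPM.

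The share of squamous keratins in the 2 sums varied little between the rams while the sums themselves ranged from 6191 to 110157 CPM. In sheep sperm it ranged from 89.2% to 93.3%, with a mean of 91.4% ± 1.5 (SD, n = 5). Nearly all of the simple sum was KRT19, a small type I keratin that is also made in basal cells of some stratified linings. Without KRT19 the simple sum of sheep sperm was 6.18 CPM ± 4.64 (SD, n = 5). In rat sperm the squamous share was 7.02% ± 3.41 (SD, n = 15), with a range of 2.01% to 12.8%, and in ovary it was 11.1% ± 3.61 (SD, n = 14), with a range of 7.13% to 20.9%. Rat sperm summed to 123 CPM of squamous and 1517 CPM of simple keratins, and ovary to 20.0 and 185 CPM. Counting KRT19 with the squamous keratins, the share averaged 99.96% in sheep sperm and was 35.8% to 51.6% in rat sperm and 35.9% to 55.2% in ovary. Every sheep sperm library was above every rat sperm and ovary library under either count. The sheep sums were made without KRT7, KRT10, KRT16 and KRT76, which the rat sums include.

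**Figure D1:**
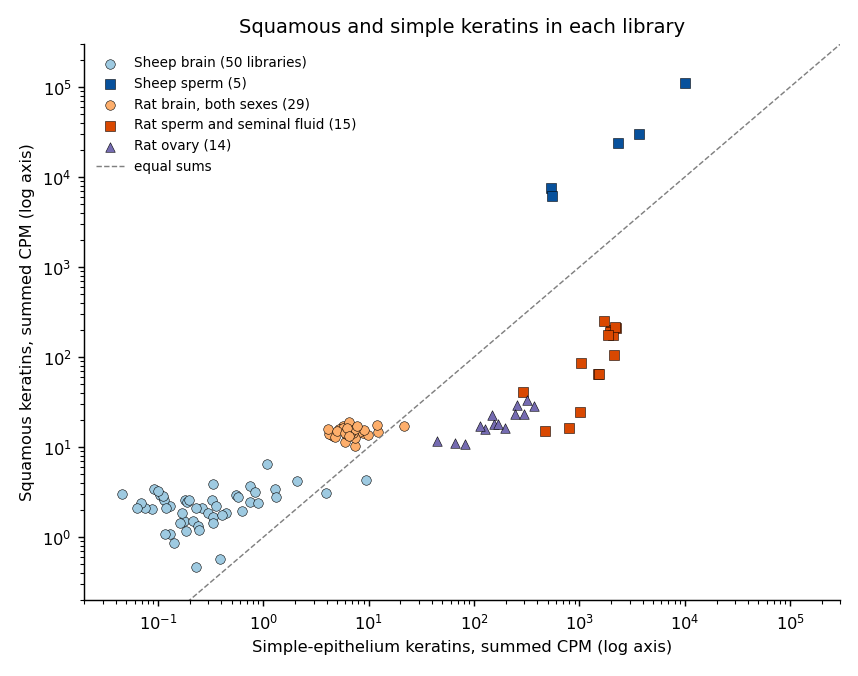
Summed CPM of squamous keratins (vertical, log axis) against simple-epithelium keratins (horizontal, log axis), with 1 point per library and a dashed line of equal sums. The 5 sheep sperm libraries lie above the line, at 6191 to 110157 CPM of squamous keratins, and the 15 rat sperm and 14 ovary libraries lie below it.

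Sheep sperm was compared with the mean of the 10 brain regions. Of the 37 sheep keratins 23 passed the filter on low counts, and 19 of these changed, 16 higher and 3 lower in sperm. Over all 21859 genes tested 74.2% changed, 33.1% higher and 41.1% lower. A gene counts as changed where its adjusted p was under 0.05 and it differed by 1 or more on the log2 scale, in either direction. The median log2 fold change was 4.87 over the tested keratins and -0.42 over all genes. In 11 tested keratins every sperm library was above every brain library, against 11% of all genes, and in 2, KRT222 and KRT28, every sperm library was below, against 27.4%. The tested members include those that passed the filter only through sperm, where they are high. The 50 brain libraries come from 5 rams and entered the fit as separate libraries.

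By mean CPM, which is not corrected for length, the mucosal members KRT13, KRT78 and KRT4 were the 3 highest keratins in sheep sperm. KRT4 and the simple KRT19 were close, at 8.65% and 8.36% of the keratin counts. KRT13, the type I chain of moist stratified linings, had the most counts of any keratin in 5 of 5 sperm libraries and made up 54.1% ± 9.87 (SD, n = 5) of the keratin counts. It stood at 5730 CPM in sheep 687, 63308 in 688, 16457 in 690, 3098 in 694 and 15122 in 699, and at 0.24 CPM ± 0.49 (SD, n = 50) in brain. Sheep 688 lay far above the others and every sperm library lay above the highest brain library, at 2.60 CPM. The log2 fold change was 17.08 ± 0.57 (SE; edgeR quasi-likelihood test, adjusted p = 7.45e-32).

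KRT4, the type II partner of KRT13, was likewise highest in 688 and next in 690. Its values were 523 CPM in 687, 11193 in 688, 3749 in 690, 586 in 694 and 2245 in 699. Only 18 counts of KRT4 were found over the 50 brain libraries, and the log2 fold change was 19.34 ± 0.35 (SE; edgeR, adjusted p = 2.09e-38). KRT78, a type II keratin of stratified epithelium, was at 648, 26893, 7520, 1435 and 4061 CPM in sheep 687, 688, 690, 694 and 699, against 0.11 CPM ± 0.13 (SD, n = 50) in brain. It rose by 16.79 ± 0.42 (SE; edgeR, adjusted p = 4.7e-37). KRT78 and KRT4, like KRT13, were highest in 688. Of the mucosal list 4 of 5 tested members rose, against 33.1% of all genes. KRT24, which was at 0.40 CPM ± 0.45 (SD, n = 5), was the fourth. Without the sperm library of 688 KRT24 was not called (edgeR, adjusted p = 0.203).

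The basal squamous keratins were uneven. KRT15, a type I chain of basal cells, was at 361 CPM in 687, 4187 in 688, 1631 in 690, 194 in 694 and 1077 in 699, and rose by 15.58 ± 0.44 (SE; edgeR, adjusted p = 6.17e-35). KRT14, the usual partner of KRT5, was at 0.75, 115, 4.18, 30.2 and 180 CPM in the same order of animals and did not pass the filter on low counts, with 7 counts over the 50 brain libraries. KRT5 itself was at 3.10 CPM in 687, 0.36 in 688, 0 in 690, 1.18 in 694 and 1.80 in 699. It rose by 3.74 ± 0.70 (SE; edgeR, adjusted p = 3.45e-06), but sperm and brain libraries overlapped. In counts not corrected for length, KRT14 was above KRT5 in 688, 690, 694 and 699 and below it in 687.

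Among the activated keratins, KRT17 was at 82.8 CPM in 687, 1382 in 688, 281 in 690, 684 in 694 and 885 in 699. It rose by 14.22 ± 0.39 (SE; edgeR, adjusted p = 1.81e-33). Here 688 was highest, followed by 699 and 694. KRT6A was at 3.97, 52.8, 2.09, 25.3 and 22.1 CPM in the 5 animals and rose by 11.42 ± 0.50 (SE; edgeR, adjusted p = 3.49e-21). Of the epidermal keratins KRT80, a type II chain of differentiated epithelia, was at 820 CPM ± 1229 (SD, n = 5), and 688 alone reached 3009 CPM against at most 431 in the others. KRT80 rose by 14.07 ± 0.48 (SE; edgeR, adjusted p = 8.18e-30). KRT79 was at 3.07 CPM ± 1.18 (SD, n = 5), with 143 counts against 3 in all brain libraries. That is a ratio of 3531 on TMM-scaled totals, with a counting interval of 1184 to 17326, and of 663 (222 to 3251) on plain totals. KRT1, the main type II chain of epidermis, was at 6.59 CPM ± 7.04 (SD, n = 5) and not tested.

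Of the simple keratins, KRT19 was at 536 CPM in 687, 10146 in 688, 3640 in 690, 548 in 694 and 2287 in 699, and rose by 14.65 ± 0.53 (SE; edgeR, adjusted p = 2.02e-30). As for KRT4 and KRT78, 688 was first and 690 next. KRT8 and KRT18, the pair that defines simple epithelium, were far lower. KRT8 was at 3.23, 1.94, 0.90, 3.85 and 12.5 CPM in sheep 687, 688, 690, 694 and 699 and rose by 4.87 ± 0.54 (SE; edgeR, adjusted p = 1.12e-11). KRT18 was at 3.10, 0.94, 0.90, 0.30 and 1.48 CPM and rose by 4.31 ± 0.57 (SE; edgeR, adjusted p = 1.5e-09). Neither followed KRT13: 688, the highest library for KRT13, was below 687, 694 and 699 for KRT8. Sperm and brain overlapped for both genes. KRT23, a type I keratin of glandular and activated epithelia, was at 976 CPM ± 1426 (SD, n = 5), with 3482 in 688 and 52.3 in 687, and rose by 12.84 ± 0.29 (SE; edgeR, adjusted p = 2.35e-39).

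**Figure D2:**
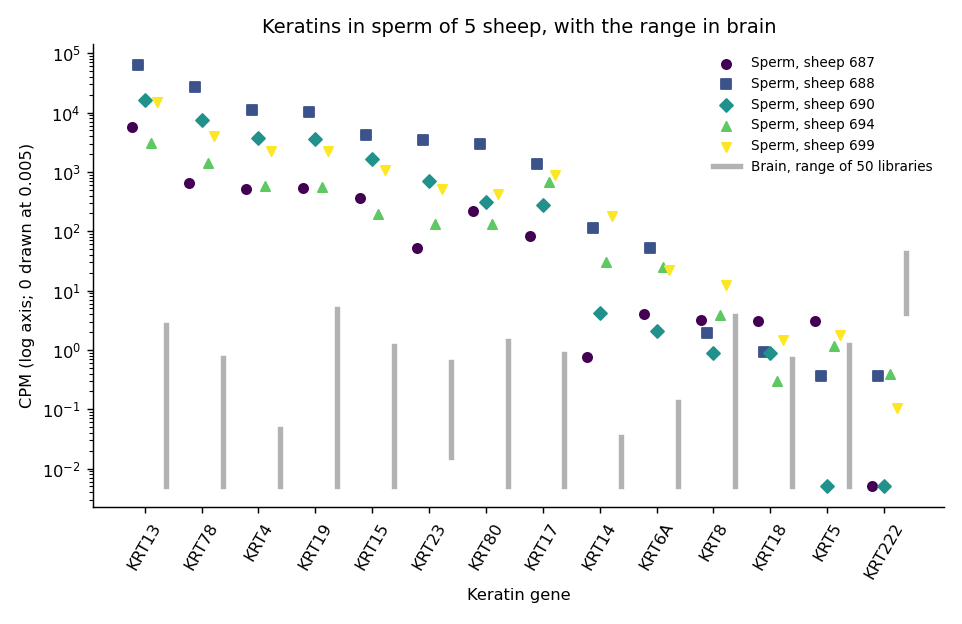
CPM (log axis, 0 drawn at 0.005) of 14 sheep keratins in sperm of 5 rams, 1 symbol per animal, with a grey bar for the range over 50 brain libraries. KRT13 lies between 3098 and 63308 CPM, and from KRT13 to KRT17 every sperm value is above the brain range, while KRT8, KRT18 and KRT5 overlap it.

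The members that fell in sheep sperm were KRT222, KRT2 and KRT28. KRT222 is described with the brain below. KRT2, an epidermal keratin, was at 0.99 CPM ± 0.80 (SD, n = 50) in brain and had 2 counts in sperm. Brain was higher by a ratio of 21.2 on TMM-scaled totals, with a counting interval of 5.85 to 175, and of 113 (31.2 to 931) on plain totals. KRT28 had no count in the 5 sperm libraries, so it was at least 3.94-fold lower there on TMM-scaled totals and at least 21.0-fold lower on plain totals, taking 3 counts over the group as the floor. Of 2 tested hair and nail members and 3 tested inner root sheath members, 1 each rose, against 33.1% of all genes. These were KRT84, at 2.45 CPM ± 2.31 (SD, n = 5), and KRT25. In sperm KRT25 had reads in sheep 694 only, and it turned to -4.97 (edgeR, adjusted p = 1) without that library.

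Other genes of squamous epithelium were at high levels in the same libraries. Of 11 genes of the cornified envelope and mucosal surface other than keratins, all 11 were tested and all 11 rose in sheep sperm. Their median log2 fold change was 11.43. Over all genes 33.1% rose and 41.1% fell. The list was chosen with earlier results of these data known, so its rise is a description and not independent support. The 11 genes summed to 7377 CPM in 687, 100851 in 688, 22132 in 690, 7602 in 694 and 16869 in 699, led by MUC21 and NCCRP1. In brain they summed to 5.97 to 22.6 CPM. Of 17 desmosome and plakin genes tested, which anchor keratin filaments at cell junctions, 14 rose and 2 fell, beside the same shares of all genes. The envelope plakins PPL and EVPL rose by 8.75 and 8.91, and PKP3, a desmosomal plaque protein, by 8.77. DSG4 was at 0 in sperm. The neutrophil list, mostly S100A9 and S100A8, summed to 12817 CPM in 687, 141482 in 688, 75450 in 690, 28261 in 694 and 51028 in 699. In brain it was at 3.65 to 33.0 CPM. The spermatid list summed to 7596, 221, 2691, 787 and 7950 CPM in the same order of animals. Male tract epithelium markers, led by ELF3, summed to 1898, 13560, 4328, 1031 and 3609 CPM in that order. Of 9 members tested 8 rose and 1 fell, beside the same shares of all genes. Sheep 688 had the highest keratin, cornified, neutrophil and male tract sums, the lowest spermatid sum and the lowest ribosomal RNA share. The part of these in the keratin levels was not tested.

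In rat sperm the simple keratins led. Of the 54 rat keratins 23 passed the filter against male brain, and 18 changed, 10 higher and 8 lower. Over all 20480 genes tested 59.1% changed, 27.7% higher and 31.5% lower. The median log2 fold change was -0.11 over the tested keratins and -0.03 over all genes. Groups did not overlap for 5 keratins that were higher (8.61% of all genes) and 5 that were lower (24.9% of all genes). The 31 members that did not pass the filter include Krt88 and Krt13, which were above 1 CPM in only some libraries.

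Krt8 ranged from 148 CPM in library 14 to 1196 in library 10, with a median of 787, against 3.87 CPM ± 1.15 (SD, n = 15) in male brain. It rose by 7.59 ± 0.30 (SE; edgeR, adjusted p = 1.83e-20). Krt18, its type I partner, ranged from 45.6 to 297 CPM with a median of 239 and rose by 6.81 ± 0.28 (SE; edgeR, adjusted p = 7.33e-20). All 15 sperm libraries were above all 15 male brain libraries for both. Krt19 ranged from 97.9 to 887 CPM with a median of 698 and rose by 9.52 ± 0.62 (SE; edgeR, adjusted p = 5.12e-15). Krt8 had the highest CPM of any keratin in 10 of 15 libraries and Krt19 in the other 5. Krt7, a type II chain of ductal and mesothelial cells, was lower, from 1.33 to 58.4 CPM with a median of 8.43, and rose by 5.88 ± 0.50 (SE; edgeR, adjusted p = 3.94e-12). Krt20, the fifth simple keratin, was at 0.10 CPM ± 0.15 (SD, n = 15) and fell by 1.25 on the log2 scale (edgeR, adjusted p = 0.0282), a call lost without the low-count filter and without libraries 7, 16 and 17.

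The basal squamous keratins were present below them. Krt5 ranged from 0 CPM in library 16 to 117 in library 13, with a median of 42.6, and rose by 12.84 ± 0.88 (SE; edgeR, adjusted p = 2.03e-14) from 4 counts in all of male brain. Krt14 ranged from 1.62 to 54.5 CPM with a median of 17.1 and rose by 10.11 ± 0.72 (SE; edgeR, adjusted p = 5.48e-14). Krt15 ranged from 0 to 84.0 CPM with a median of 36.8 and rose by 8.12 ± 0.97 (SE; edgeR, adjusted p = 6.25e-09). Libraries 3, 7 and 16 were the lowest for Krt5 and for Krt15. Krt17 was at 2.55 CPM ± 2.26 (SD, n = 15) and rose by 3.10 ± 0.54 (SE; edgeR, adjusted p = 6.71e-06). The mucosal keratins that led sheep sperm were near 0: Krt13 had a median of 0.43 CPM and a highest value of 5.99, in library 15, Krt4 averaged 0.29 CPM, and Krt78 had 3 counts over the 15 libraries.

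Some members stood high in single libraries. Krt88, a type II keratin, was at 132 CPM in library 14, 88.2 in library 7 and 27.7 in library 3, with 7.38 in library 13 and at most 1.53 in the other 11. Krt26, a type I keratin of the inner root sheath, was at 37.2, 32.1, 9.61 and 2.33 CPM in the same 4 libraries and at most 0.59 in the others. The spermatid list summed to 29019, 21291 and 9238 CPM in libraries 14, 7 and 3, the 3 highest of the 15, while library 10, with 8941, had 1.12 CPM of Krt88. Krt8, Krt18 and Krt19 were lowest in libraries 14 and 7. Krt7 and Krt80 were highest in library 15, at 58.4 and 7.83 CPM, where the 7-gene mesothelium list summed to 540 CPM, against 3.52 to 192 in the others. Male tract epithelium markers summed to 1595 to 22140 CPM over the 15 libraries, with 1595 and 1724 CPM in libraries 7 and 14. In male brain the same list summed to 530 to 789 CPM. Clu led it in both, with means of 6628 CPM in sperm and 612 in male brain. All 11 tested members of the list rose in sperm, against 27.7% of all genes. Lcn8, Lcn9 and Rnase10 averaged only 0.04 to 0.08 CPM in sperm. The part of these markers in the keratin levels was not tested.

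Krt26 stood at 13.2 CPM ± 2.21 (SD, n = 15) in male brain and was not called against sperm, with a log2 value of -0.94 ± 0.91 (SE; edgeR, adjusted p = 0.35). With the animal as a block it fell by 5.54 (edgeR, adjusted p = 0.000549), and by 2.75 in DESeq2 (adjusted p = 0.00117). Sperm libraries 14 and 7 were above all 15 brain libraries and the other 13 were below all of them. Krt10, the type I epidermal chain, was at 5.15 CPM ± 2.2 (SD, n = 15) in sperm and 5.93 CPM ± 1.21 (SD, n = 15) in brain and was not called, with a log2 value of -0.11 that turned to 0.045 with upper quartile factors (edgeR, adjusted p = 0.553 and 0.846).

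**Figure D3:**
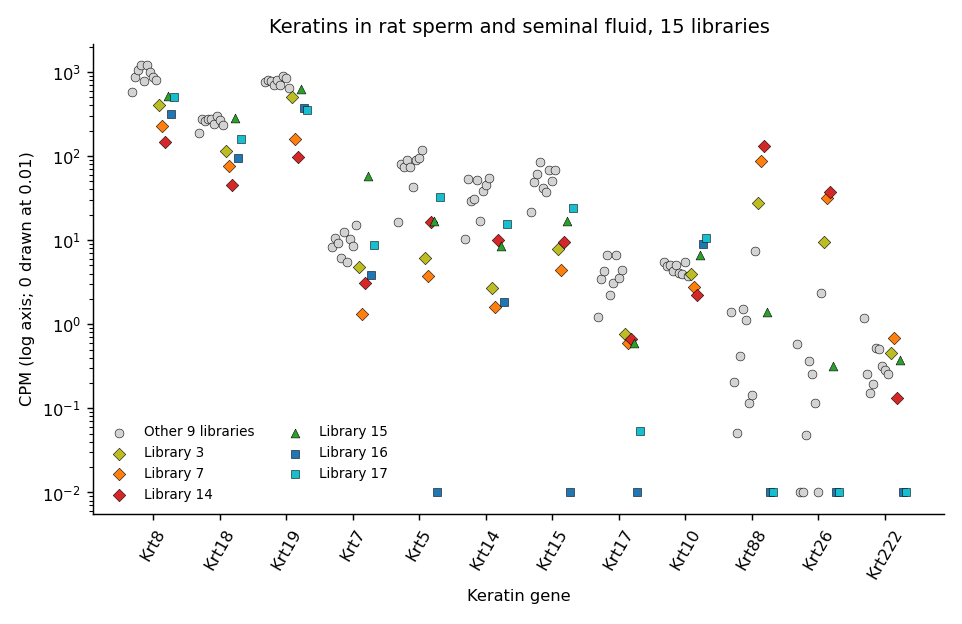
CPM (log axis, 0 drawn at 0.01) of 12 rat keratins in 15 sperm libraries, 1 point per library, with 6 libraries drawn in colour. Libraries 14, 7 and 3 are the highest for Krt88 (132, 88.2 and 27.7 CPM) and Krt26, library 15 is the highest for Krt7 (58.4 CPM), and library 16 is at 0 for Krt5 and Krt15.

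The ovary carried the same 4 simple keratins, of which Krt8, Krt18 and Krt19 were lower than in sperm. Of the 54 rat keratins 29 passed the filter against female brain, and 25 changed, 14 higher and 11 lower. Of the 5 simple keratins, all tested, 4 were higher in ovary than in female brain and 1, Krt20, was lower. Over all 20801 genes tested 56.9% changed, 27.7% higher and 29.2% lower. The median log2 fold change was 0.30 over the tested keratins and 0.02 over all genes. Groups did not overlap for 9 keratins that were higher (26.1% of all genes) and 8 that were lower (27.7% of all genes).

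Krt8 ranged from 15.9 CPM in library 18 to 151 in library 21, with a median of 55.7, against 3.46 CPM ± 0.97 (SD, n = 14) in female brain, and rose by 4.30 ± 0.29 (SE; edgeR, adjusted p = 1.09e-14). Krt18 ranged from 4.91 to 61.9 CPM with a median of 24.4 and rose by 3.86 ± 0.29 (SE; edgeR, adjusted p = 1.86e-13). Krt19 ranged from 17.5 to 123 CPM with a median of 63.1 and rose by 5.65 ± 0.63 (SE; edgeR, adjusted p = 1.05e-09). All 14 ovaries were above all 14 female brains for these 3 genes. Krt7 ranged from 4.90 to 45.1 CPM with a median of 16.7 and rose by 6.70 ± 0.38 (SE; edgeR, adjusted p = 1.16e-16). The mesothelium list, which marks the surface layer of the ovary, summed to 105 to 404 CPM in ovary and 0.69 to 2.33 in female brain, and the granulosa list to 1087 to 4208 CPM in ovary. Their part in the keratin levels was not tested.

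Squamous keratins of the ovary were led by the epidermal Krt10, at 7.44 CPM ± 1.16 (SD, n = 14), which was not called against brain because its log2 change of 0.30 was below the threshold of 1 (edgeR, adjusted p = 0.00502). Krt80 was at 3.95 CPM ± 1.97 (SD, n = 14) and rose by 3.22 ± 0.31 (SE; edgeR, adjusted p = 3.84e-11). Krt15 ranged from 0.07 to 8.82 CPM, Krt13 from 0.18 to 6.69 CPM, and both rose, by 4.73 and 4.21 (edgeR, adjusted p = 1.06e-06 and 8.03e-09). Krt79, an epidermal and sebaceous duct keratin, was at 1.13 CPM ± 0.69 (SD, n = 14) and rose by 4.29 ± 0.39 (SE; edgeR, adjusted p = 1.59e-11). The basal pair was nearly absent: Krt5 had 8 counts over the 14 ovaries, and Krt14 was at 0.26 CPM ± 0.25 (SD, n = 14).

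Krt83, a type II keratin of the hair cortex, ranged from 0.72 to 3.48 CPM in ovary with a median of 0.96, and had 5 counts over the 14 female brains. It rose by 7.38 ± 0.42 (SE; edgeR, adjusted p = 1.55e-16) against brain. It had no count in the 15 sperm libraries, so it was at least 327-fold higher in ovary than in sperm on TMM-scaled totals and at least 407-fold on plain totals, taking 3 counts over the sperm group as the floor. Krt81, another type II hair keratin, was at 0.30 CPM ± 0.14 (SD, n = 14) in ovary and rose by 4.96 against brain. All 14 ovaries were above every female brain and every sperm library for Krt83 and Krt81. Reads of the closely related hair keratins Krt81, Krt83 and Krt86 may have been split or shared by the counting, so these values are uncertain. Krt28, an inner root sheath keratin, was at 1.31 CPM ± 0.61 (SD, n = 14) in ovary and rose by 2.31 ± 0.24 (SE; edgeR, adjusted p = 1.84e-10).

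Between ovary and sperm, which came from different rats of different sex, 18 of 23 tested keratins changed, 8 higher and 10 lower in ovary. Over all 19611 genes tested 50.8% changed, 27.9% higher and 22.9% lower. Groups did not overlap for 3 keratins that were higher in ovary (18.4% of all genes) and for Krt14, which was lower (5.85% of all genes). Krt8, Krt18 and Krt19 were lower in ovary, by log2 values of -3.37 ± 0.32, -2.75 ± 0.30 and -3.18 ± 0.28 (SE; edgeR, adjusted p = 1.35e-10, 2.97e-09 and 3e-11). Krt7 was not called, at 0.90 ± 0.40 (SE; edgeR, adjusted p = 0.0473). Krt5 and Krt14 were lower in ovary, by -12.13 ± 0.89 and -6.55 ± 0.60 (SE; edgeR, adjusted p = 4.92e-13 and 6.51e-11). Krt88 was lower in ovary by -6.02 ± 1.20 (SE; edgeR, adjusted p = 5.77e-05), although its ovary values, 0.13 to 0.60 CPM, lay within the sperm range. The comparisons of ovary and of sperm with each other share libraries with those against brain.

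Type II and type I partners varied together across rat libraries. Only partner pairs were tested, so this is not shown to be particular to partners. Krt8 and Krt7, both type II, were also lowest in the same ovaries. In ovaries 18, 26 and 2 Krt8 was at 15.9, 21.5 and 29.2 CPM, and Krt7 at 6.41, 4.90 and 7.45. Over 5 pairs tested, on log2(CPM + 1), Krt8 and Krt18 had a Pearson r of 0.938 in sperm (n = 15; Spearman rho 0.725; permutation p = 1e-05 and 0.00297, two-sided; adjusted 1.25e-05 and 0.00371) and 0.969 in ovary (n = 14; rho 0.952; permutation p = 1e-05 for both, adjusted 1.25e-05 and 1.67e-05). Krt5 and Krt14 had an r of 0.949 in sperm (rho 0.918; permutation p = 1e-05 for both, adjusted 1.25e-05 and 1.67e-05). Krt7 and Krt19 had an r of 0.948 in ovary (rho 0.982; permutation p = 1e-05 for both, adjusted 1.25e-05 and 1.67e-05) and 0.594 in sperm (rho 0.554; permutation p = 0.0297 and 0.0348, adjusted 0.0297 and 0.0348). The last did not pass on plain CPM (r = 0.499; permutation, adjusted p = 0.0851) or without libraries 7, 16 and 17 (r = 0.424; permutation, adjusted p = 0.133). A p of 1e-05 is the smallest that 100000 resamples can give. Without the 2 libraries farthest from the median of the type II gene, r was 0.836, 0.970 and 0.688 in sperm for Krt8, Krt5 and Krt7 with their partners, and 0.955 for both pairs in ovary. The libraries of a group share a makeup of cells that varies between animals, and the part of that in these correlations was not tested.

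The level of Krt8 over Krt18 in the same library had a median of 3.24 in sperm, with a range of 1.84 to 5.00, and 2.23 in ovary, with a range of 1.65 to 3.25. The level of Krt7 over Krt19 had a median of 0.0117 in sperm, with a range of 0.00786 to 0.0933, and 0.305 in ovary, with a range of 0.156 to 0.369. No sperm library reached the lowest ovary in the ratio of Krt7 to Krt19, and library 15 came nearest. The ratios are of CPM and are not corrected for length, so they compare samples, not the amounts of the 2 genes.

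**Figure D4:**
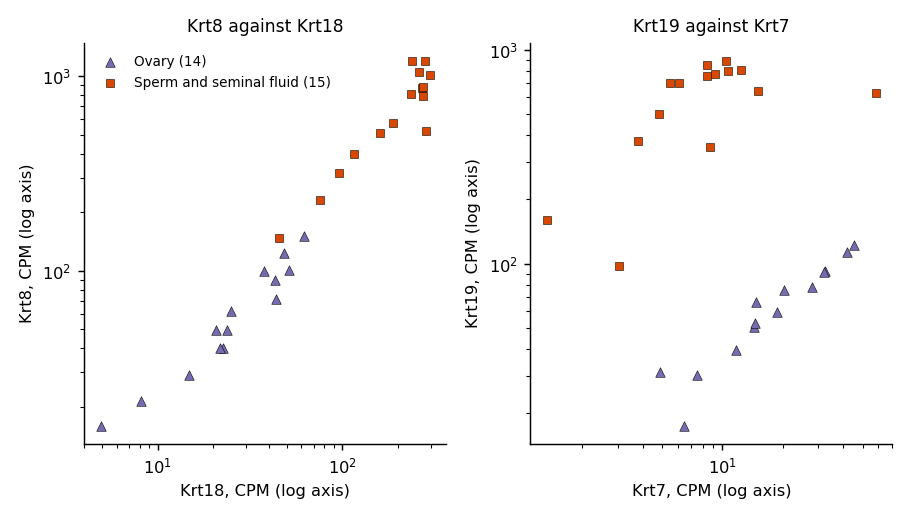
CPM of Krt8 against Krt18 (left) and Krt19 against Krt7 (right), all axes log, 1 point per library, with 14 ovaries and 15 sperm libraries. Krt8 and Krt18 rise together within each sample type (r = 0.938 in sperm and 0.969 in ovary), and at a given Krt7 level Krt19 is higher in sperm than in ovary.

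In brain the family was led by 1 member. KRT222, which encodes a keratin-like type I protein outside the squamous and simple lists, had the highest CPM of any keratin in 50 of 50 sheep and 29 of 29 rat brain libraries. The sums of both lists were small: squamous keratins came to 2.36 CPM ± 1.07 (SD, n = 50) in sheep brain, and to 14.5 CPM ± 2.06 (SD, n = 15) and 15.4 CPM ± 1.69 (SD, n = 14) in male and female rat brain. Simple keratins summed to 0.63 CPM ± 1.41 (SD, n = 50), 7.17 CPM ± 2.43 (SD, n = 15) and 7.45 CPM ± 4.36 (SD, n = 14). The squamous share of these small sums was 84.5% ± 13.3 (SD, n = 50) in sheep brain, where libraries ran from 31.4% to 98.5%, and all 5 sheep sperm libraries fell inside those limits. It was 67.4% ± 7.01 (SD, n = 15) and 68.8% ± 9.02 (SD, n = 14) in male and female rat brain.

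KRT222 was at 26.0 CPM ± 8.09 (SD, n = 50) in sheep brain, from 4.11 to 42.7, and at 0 to 0.39 CPM in sperm, where it fell by 6.70 on the log2 scale (SE 0.38; edgeR, adjusted p = 5.69e-22). In rats it ranged from 28.2 to 43.3 CPM in male brain with a median of 37.7, and from 30.5 to 46.4 CPM in female brain with a median of 38. It fell by 6.54 in sperm and by 7.20 in ovary (SE 0.40 and 0.13; edgeR, adjusted p = 1.7e-15 and 1.82e-29). Every brain library was above every sperm and ovary library of its species. The fall in sperm was not called different between the species, at a log2 difference of -0.27 ± 0.76 (SE; edgeR, adjusted p = 0.777), whose sign turned to 0.60 with RLE and 0.40 with upper quartile factors and to 0.62 in DESeq2.

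The 10 sheep regions were compared with 1 test per gene for a difference among any of them. Of 18 keratins tested 16 differed at an adjusted p below 0.05, against 76.7% of all 21147 genes. KRT222 averaged 33.6 CPM ± 8.49 in visual, 33.0 ± 5.98 in motor and 32.4 ± 5.09 in frontal cortex, 28.1 ± 6.82 in prefrontal and 27.1 ± 4.76 in posterior parietal cortex, 24.6 ± 6.37 in entorhinal cortex, 23.9 ± 3.70 in basal ganglia, 22.9 ± 5.61 in cerebellum, 21.7 ± 6.53 in hippocampus and 13.1 ± 5.13 in pons (SD, n = 5 each; edgeR, adjusted p = 0.000197). Each neighbouring pair in this order differed by less than the larger of its SDs, except hippocampus and pons, whose ranges met where pons of 694, at 17.1 CPM, was above hippocampus of 688, at 16.0. In pons sheep 699 was at 4.11 CPM and the other 4 at 14.4 to 17.1. The neuron markers of that library summed to 437 CPM, the lowest of the 50 brain libraries, against 1225 to 3895 in the other 4 pons libraries, and their part was not tested.

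KRT27 and KRT25, type I keratins of the inner root sheath, were found mainly in cortex. KRT27 averaged 0.93 to 1.35 CPM in visual, motor, frontal, prefrontal and posterior parietal cortex, 0.47 CPM ± 0.47 (SD, n = 5) in entorhinal cortex, and 0.02 to 0.12 CPM in hippocampus, pons, basal ganglia and cerebellum (edgeR, adjusted p = 4.17e-07). KRT25 averaged 0.12 to 0.64 CPM in the 6 cortical regions and 0 to 0.04 in the other 4 (edgeR, adjusted p = 4.5e-07). In motor cortex sheep 687 had no count of KRT27 and 0.09 CPM of KRT2, while the other 4 animals had 0.93 to 1.97 and 1.12 to 2.76 CPM. That library held 712 CPM of choroid plexus and ependyma markers, against 14.6 to 59.5 in the others, and 229 CPM of meninges markers, against 44.9 to 57.3. Their part was not tested. KRT2 averaged from 0.19 CPM ± 0.10 in hippocampus to 1.73 CPM ± 1.13 in motor cortex (SD, n = 5; edgeR, adjusted p = 0.000487). KRT24, a mucosal type I keratin, had its highest means in cerebellum, at 0.78 CPM ± 0.41 (SD, n = 5), and pons (edgeR, adjusted p = 6.89e-07). In pons the mean rests on sheep 687 and 688, at 1.86 and 1.13 CPM. Sheep 690, 694 and 699 were at 0.092, 0.149 and 0.015 CPM there. In cerebellum sheep 690 was at 0.116 CPM and the other animals at 0.68 to 1.17.

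**Figure D5:**
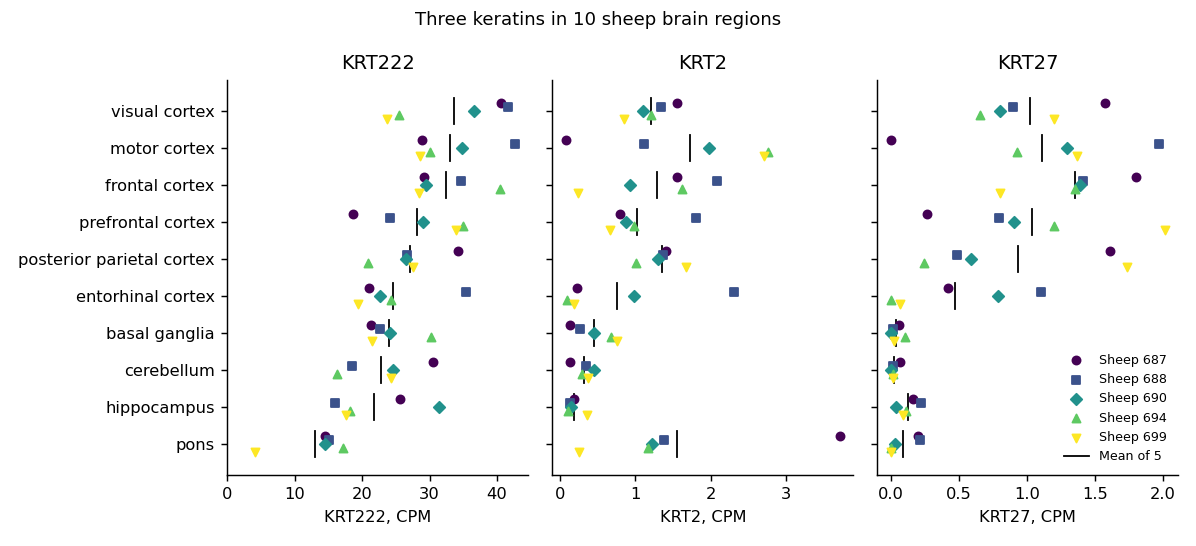
CPM of KRT222, KRT2 and KRT27 in 10 sheep brain regions, 1 symbol per animal, with a black line at the mean of the 5 animals. KRT222 averages 33.6 CPM in visual cortex and 13.1 in pons, and KRT27 is near 0 outside cortex.

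Several other members were above 1 CPM in rat brain. Krt26 was at 13.2 CPM ± 2.21 (SD, n = 15) in male and 13.9 CPM ± 2.31 (SD, n = 14) in female brain, and Krt71, a type II chain of the inner root sheath, at 7.16 ± 3.18 and 6.81 ± 2.56. Krt10 was at 5.93 and 6.15 CPM, Krt2 at 3.89 and 4.56, Krt8 at 3.87 and 3.46, Krt18 at 1.98 and 2.15, and Krt77 at 1.84 and 1.71 in male and female brain. Between the sexes 0 of 23 tested keratins changed, by edgeR and by DESeq2, against 0.0583% of 20570 genes, 0.0438% higher and 0.0146% lower in males. The sexes overlapped for all 23, while 0.0292% of genes were higher and 0.0194% lower in males without overlap. At an unadjusted edgeR p below 0.05 there was 1, Krt80, at 0.30 CPM in male and 0.43 in female brain (p = 0.00518, adjusted p = 0.267).

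In both reproductive samples Krt71, Krt2 and Krt77 fell. On the log2 scale the sperm and ovary values against brain were -5.52 and -3.29 for Krt71, -8.16 and -4.54 for Krt2, and -4.94 and -5.01 for Krt77 (edgeR, adjusted p at most 6.76e-08 in these 6). Krt26 fell by 8.42 ± 0.31 in ovary (SE; edgeR, adjusted p = 1.45e-21). Sheep KRT71 had no count in sperm but only 21 counts over all brain libraries, too few to give a fold. Sheep KRT2 fell, as given above, and sheep KRT77 was not called, at 0.36 ± 1.08 (SE; edgeR, adjusted p = 0.764). Of the other intermediate filament genes, the log2 values in sheep sperm, rat sperm and ovary were -10.19, -10.56 and -10.55 for NEFL, a neurofilament gene, and -12.49, -12.61 and -9.83 for GFAP, the astrocyte filament. Of 15 genes of that list tested, 2 rose and 11 fell in sheep sperm, and 4 rose and 8 fell in rat sperm. In ovary 5 of 14 rose and 5 fell. Over all genes the shares higher and lower were 33.1% and 41.1%, 27.7% and 31.5%, and 27.7% and 29.2%.

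A few brain libraries held simple keratins well above their group. In frontal cortex of sheep 699 KRT19 was at 4.89 CPM and KRT8 at 3.71, against at most 0.08 and 0.09 in the other 4 animals. In posterior parietal cortex of sheep 694 KRT8 was at 2.23 CPM and KRT19 at 1.33. An 8-gene meninges list summed to 387 CPM in that frontal cortex, against 38 to 73.0 in the other 4, and to 330 CPM in that posterior parietal cortex, against 68.6 to 82.6. Simple keratins summed to 9.36 CPM in that frontal cortex and 3.94 in that posterior parietal cortex. The meninges list was also at 348 and 347 CPM in hippocampus of 694 and 699, and at 339 in pons of 694. Simple keratins summed to only 0.63, 0.33 and 0.83 CPM in those libraries. The part of the meninges list in the keratin levels was not tested. In rats Krt19 was at 12.4 CPM in female brain 2 and 5.17 in male brain 14, with medians of 0.30 and 0.34. Every rat sperm and ovary library was above these rat brain values for Krt19.

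The change from brain to sperm was set between the species in 1 model over the symbols found in both tables, after adding up the 10 regions of each ram. Of 28 keratins tested, 21 differed, 18 with a higher and 3 with a lower sperm-to-brain change in sheep. Over all 15172 genes tested 62.3% differed, 23.9% higher and 38.4% lower in sheep. The median difference was 5.02 over the tested keratins and -0.69 over all genes. The 3 that were lower in sheep are the epithelial chains KRT5, KRT8 and KRT18, with log2 differences of -10.00 ± 1.36, -3.37 ± 0.56 and -2.69 ± 0.52 (SE; edgeR, adjusted p = 3.95e-08, 2e-06 and 1.97e-05). KRT13, KRT17, KRT15 and KRT19 were higher in sheep, by 12.69 ± 1.47, 10.16 ± 1.13, 6.74 ± 1.49 and 4.33 ± 0.97 (SE; edgeR, adjusted p = 1.11e-09, 4.51e-10, 0.000145 and 0.000178). KRT14 was higher in sheep by 4.4 ± 1.28 (SE; edgeR, adjusted p = 0.0029), so the usual partners KRT5 and KRT14 differed in opposite directions. KRT4 was not called, at 12.33 ± 7.10 (SE; edgeR, adjusted p = 0.126), and DESeq2 gave 14.11 (adjusted p = 5.91e-15). These differences are between species together with their kits and sample types, which cannot be told apart.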

How the data were processed

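RNA-seq was made from brain and sperm of 5 rams, brain and sperm of 15 male rats and brain and ovary of 14 female rats. The authors deposited whole-number read counts per gene, not normalized. Per the series' design text, reads were trimmed with Trimmomatic 0.39, aligned with STAR 2.7.5a to GRCr8 or ARS-UI_Ramb_v3.0 and counted with Rsubread 2.20.0. For strand and multimapping, the setting is not given in the sources used here. No column was left without a sample, and 0 libraries held identical values.

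Genes were tested with edgeR 4.0.16 (quasi-likelihood, TMM factors, low-count filter by group, prior count 0.125, Benjamini-Hochberg adjustment over all genes tested) in R 4.3.3. SE is the absolute log2 value over the square root of F. Alternatives were RLE and upper quartile factors, no low-count filter, DESeq2 1.42.0 and the animal as a block. For sperm against brain and between species, the sperm library of each ram was left out in turn, with its brain libraries kept. Between regions, the brain libraries of each ram were left out in turn. Leaving out rat sperm libraries 7, 16 and 17 together, and rat brain libraries 1 and 4, was chosen after seeing the data. The edgeR and correlation steps were tested on simulated data. Library totals were 13.7 to 119 in units of 1000000 counts. The p-values measure the spread between these libraries.

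Brain and reproductive libraries of a number come from the same animal, per the labels. Their deviations from the group means correlated with a median r of 0.062 over 5 rams, 0.055 over 15 male rats and 2.3e-06 over 14 female rats. The main fits have no block.

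Members and lists were chosen with earlier results of these data known. Values per sample were given for simple, basal, mucosal and activated members with a mean of at least 1 CPM, for the 3 highest members of each sample type and for the 3 called members with the largest fold per direction and at least 1 CPM. KRT1, KRT20, KRT23, KRT24, KRT25, KRT28, KRT35, KRT36, KRT71, KRT79, KRT80, KRT84, Krt4, Krt10, Krt20, Krt78, Krt80 and Krt81 were named after their values were seen.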

Additional observations from a re-analysis of the deposited data

Results flagged for a closer look

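Sheep sperm keratins with a mean of at least 1 CPM were screened for single animals that stood apart. In the brain regions only KRT222, KRT2, KRT27, KRT8 and KRT19 were screened. A group here is a keratin in a sample type, over the 5 rams. The gap between the most extreme animal and its nearest neighbour was set against the range of the group. Other keratins were not screened in brain. Of 68 groups tested, 13 had a gap above 0.71 of the range. That cut-off is made for normally spread values, but it was applied to CPM without a log. Many groups also share libraries, so the number that chance gives is not known. Sheep 688 was the far highest sperm library for KRT13 at 63308 CPM (next 16457), KRT78 at 26893 (next 7520), KRT23 at 3482 (next 694), KRT80 at 3009 (next 431) and KRT35, a hair keratin, at 32.9 (next 3.80). Sheep 699 was the far highest for KRT8 in sperm, at 12.5 CPM (next 3.85).

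Among brain libraries, KRT19 and KRT8 stood out in frontal cortex of 699, at 4.89 CPM (next 0.075) and 3.71 CPM (next 0.090), and KRT8 in posterior parietal cortex of 694, at 2.23 CPM (next 0.258). KRT19 in motor cortex of 687 was at 0.115 CPM (next 0.016), KRT27 in cerebellum of 687 at 0.069 CPM (next 0.014) and KRT2 in prefrontal cortex of 688 at 1.80 CPM (next 0.984). KRT222 in pons of 699 was the lowest, at 4.11 CPM, with 14.4 CPM next.

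The sperm-to-brain change differed between sheep and rat, in the test of the difference itself, for 21 of 28 members tested. Positive values mean a larger rise or smaller fall in sheep. The mucosal and activated members gave 16.07 for KRT78, 15.32 for KRT6A, 12.69 for KRT13 and 10.16 for KRT17, and the unlisted KRT23 10.76. The basal members gave 6.74 for KRT15, 4.4 for KRT14 and -10.00 for KRT5, and the simple members 4.33 for KRT19, 5.40 for KRT20, -3.37 for KRT8 and -2.69 for KRT18. The epidermal members gave 16.41 for KRT1, 10.53 for KRT80, 8.72 for KRT79, 4.65 for KRT77 and 4.46 for KRT2, the inner root sheath members 7.77 for KRT26 and 3.69 for KRT27, and the hair members 11.51 for KRT35 and 9.67 for KRT36. Leaving out the sperm library of 1 ram turned KRT2 to -1.78 (without 690), and KRT77 to -1.59 and KRT20 to -3.61 (both without 688). KRT26 and KRT27 lost their call without the sperm library of 694. Sizes for members with a group at or near 0 counts depend on the prior count. Species and library kit cannot be told apart.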

How the results depend on the processing

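The number of keratins called moved by more than 1.5 times in rat only, where more members were tested. It was 37 without the low-count filter and 34 with DESeq2 for sperm against brain (18 in the main test), 40 and 39 for ovary against brain (25), and 32 and 31 for ovary against sperm (18). The correlation of Krt7 with Krt19 in rat sperm no longer passed on plain CPM (r = 0.499; permutation, adjusted p = 0.0851), without libraries 16 and 17 (r = 0.595, adjusted p = 0.0529) or without 7, 16 and 17 (r = 0.424, adjusted p = 0.133).

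Of the values of single members under alternatives, 857 kept their direction and side of the threshold, 12 turned sign, 4 newly passed and 5 no longer passed. Sheep KRT27, not called, turned to 0.041 and rat sperm Krt10 to 0.045 with upper quartile factors. Leaving out the sperm library of 1 ram gave -4.97 (without 694) to 3.43 for sheep KRT25. Between species, KRT222 turned to 0.60 (RLE), 0.40 (upper quartile) and 0.62 (DESeq2), and KRT28 to 1.72 (DESeq2). Leaving out the sperm library of 1 ram gave -1.78 (without 690) to 5.05 for KRT2 and -1.59 (without 688) to 5.03 for KRT77. It gave -3.61 (without 688) to 5.78 for KRT20, -7.85 (without 694) to 1.83 for KRT25 and -0.64 to 0.11 (without 687) for KRT222. Without the sperm library of 694, KRT26 (3.31) and KRT27 (2.02) lost their call. The causes were not tested. The median of all genes in sheep sperm against brain was -0.42 with TMM, -0.17 with RLE and 0.31 with upper quartile factors, and 1.05 in DESeq2; between species it was -0.69, 0.22, 0.06 and 0.41.

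With the animal as a replicate block, 19 keratins were called in sheep sperm (16 higher, 3 lower), 19 in rat sperm (9 higher, 10 lower), 24 in ovary and 17 between regions. Leaving out the sperm library of 1 ram gave 18 to 20 called keratins in sheep sperm. Leaving out the brain libraries of 1 ram gave 13 to 16 between regions. Depth limits members with few counts: 14 of 37 sheep and 31 of 54 rat members were not tested in sperm.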
